A study of Mus musculus with 48 samples.

Results

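A set of 10 genes that osteoblasts and osteocytes use to build and mineralize bone matrix were followed through tibiae of young and aged mice under caloric restriction (CR). They are Bglap, Bglap2, Ibsp, Alpl, Spp1, Sparc, Dmp1, Phex, Mepe and Phospho1, and they were taken by name from the deposited table. All 10 were found among its 29801 genes, each on 1 row, and all 10 had a mean of at least 1 FPKM (fragments scaled by transcript length and by the number of mapped reads) over the 12 mice, so all were tested. RNA of whole tibiae from male C57Bl6J mice was sequenced, with 3 mice each in the groups aged CR, aged AL, young CR and young AL (AL, ad libitum). By the series' design text, aged mice were 15 to 18 months and young mice 10 weeks old, and the methods give a range of weeks around the young age. These are ages at the start of the diet, and bones were collected 8 weeks later. Food of CR mice was cut by 10% in week 1, by 20% in week 2 and by 40% from week 3 of an intervention of 8 weeks, while AL mice ate freely. The methods can also be read as 40% of the starting intake being given from week 3. All mice were first put on the NIH-31 diet, and the methods give a switch to a micronutrient-fortified NIH-31/NIA diet when CR began. They do not state which formula AL mice ate from then on. If AL mice stayed on the NIH-31 diet, restriction and diet formula cannot be told apart. Each mouse has 4 technical repeats among the 48 labelled samples, but a single value in the table. The study's layout sets a tibia osteotomy within the diet period and RNA sequencing at its end, and does not say whether the sequenced bones came from operated mice.

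Bone mineral forms when osteoblasts secrete a collagen-rich matrix and raise the local supply of phosphate while removing pyrophosphate, an inhibitor of crystal growth. Osteoblasts that become buried turn into osteocytes, which form a network in the matrix and take part in phosphate control, partly through the hormone encoded by Fgf23. Bglap and Bglap2 encode osteocalcin, a vitamin K-dependent protein that binds mineral and is known as a late marker of osteoblasts. Dmp1, Ibsp, Mepe and Spp1 belong to the SIBLING family of acidic matrix phosphoproteins. Alpl and Phospho1 encode phosphatases, Sparc encodes the collagen-binding protein osteonectin, and Phex encodes an endopeptidase of osteocytes and osteoblasts.

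The members lie in 2 gene clusters and at 4 single positions, here on GRCm38 with GENCODE M21. Bglap (chr3:88383501-88384464, minus strand) and Bglap2 (chr3:88377736-88378699, minus strand) stand beside Bglap3, and the 3 genes take up 15.8 kb. Dmp1 (chr5:104202613-104214102), Ibsp (chr5:104299171-104311469), Mepe (chr5:104325329-104338611) and Spp1 (chr5:104435118-104441050) all lie on the plus strand within 238 kb, with no other protein-coding gene between them. The others are Alpl (chr4:137741733-137796384, minus), Phospho1 (chr11:95824499-95832140, plus), Sparc (chr11:55394500-55423183, minus) and Phex (chrX:157162075-157415312, minus). The 2 osteocalcin members share much of their sequence. Of all 50-base stretches in annotated Bglap transcripts, 51.3% also occur in Bglap2, and 69.2% of those in Bglap2 occur in Bglap. Reads from such stretches can be assigned to either gene, so the separate FPKM of Bglap and Bglap2 are uncertain. Phospho1 overlaps Zfp652 on its own strand and Abi3 on the other, and the sources used here do not say whether the quantification used strand.

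RUNX2, the transcription factor required for osteoblasts to form, is known to bind the bases ACCACA. Promoter sequences from RefSeq (GRCm38.p6) were searched for ACCACA and its reverse complement TGTGGT in the 250 bases before each start site. Of the 10 members, 9 matched the table (all but Bglap2), with 12 windows. The letters occurred in 4 windows, of Bglap, Dmp1, Mepe and Spp1, against 14% of all 32851 windows of that length. A match is a description of the letters and no evidence of binding. The 250 bases are printed for Bglap and Mepe, the members whose levels differed in opposite directions between young CR and young AL mice, with matches in capitals. In Bglap (chr3:88384467-88384716, minus strand) the match begins at position -132 from the start site, and in Mepe (chr5:104325079-104325328, plus strand) ACCACA begins at position -118 and TGTGGT at position -80.
Bglap: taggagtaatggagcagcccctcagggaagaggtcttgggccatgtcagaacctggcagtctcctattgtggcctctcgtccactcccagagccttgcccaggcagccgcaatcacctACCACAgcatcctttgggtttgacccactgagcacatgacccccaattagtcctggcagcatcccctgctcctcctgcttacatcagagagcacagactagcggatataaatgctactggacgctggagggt
Mepe: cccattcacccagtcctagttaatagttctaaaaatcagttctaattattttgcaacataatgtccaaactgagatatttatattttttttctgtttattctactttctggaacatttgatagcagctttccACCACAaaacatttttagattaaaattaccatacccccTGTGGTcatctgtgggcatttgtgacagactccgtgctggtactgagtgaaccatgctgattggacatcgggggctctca

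Quantile normalization by the authors gave every mouse the same distribution of FPKM, so a change in total mRNA cannot be seen, and no read depth can be given. Over the 12 mice, Spp1 averaged 439, Sparc 421, Bglap 417 and Bglap2 254 FPKM. Ibsp followed with 81.6 FPKM, then Mepe with 25.0, Dmp1 with 17.0, Alpl with 14.9, Phospho1 with 11.4 and Phex with 5.52 FPKM. Between the highest and lowest mouse the levels differed 10.3-fold for Mepe, 8.22-fold for Bglap2 and 7.36-fold for Bglap, against 2.03-fold for Alpl and 2.1-fold for Spp1. The median SD of the members on the log2 scale was 0.42 in aged CR, 0.69 in aged AL, 0.21 in young CR and 0.18 in young AL mice. One animal, aged AL mouse 14, had the lowest level of all 12 mice for each of the 10 members. It also had the highest summed skeletal muscle markers (1304 FPKM over 9 genes, against 171 to 1088 FPKM in the other 11 mice). Its summed osteoblast (290 FPKM), chondrocyte (24), adipocyte (271) and marrow stromal markers (251) were the lowest of all 12 mice. So were its sums of osteoblast matrix (653 FPKM) and osteocyte genes (52.8 FPKM), while osteoblast transcription factors had their highest sum there (153 FPKM). Its other marker sums, such as those of osteoclasts and macrophages, were neither lowest nor highest. That mouse stood farthest from its group over all genes, at a root mean square log2 distance of 0.435. Aged CR mouse 5, the next at 0.378, was the lowest of its group for 8 members and the highest for Bglap and Bglap2. In whole-bone RNA, fewer osteoblasts or osteocytes and less RNA per cell cannot be told apart.

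**Figure D1:**
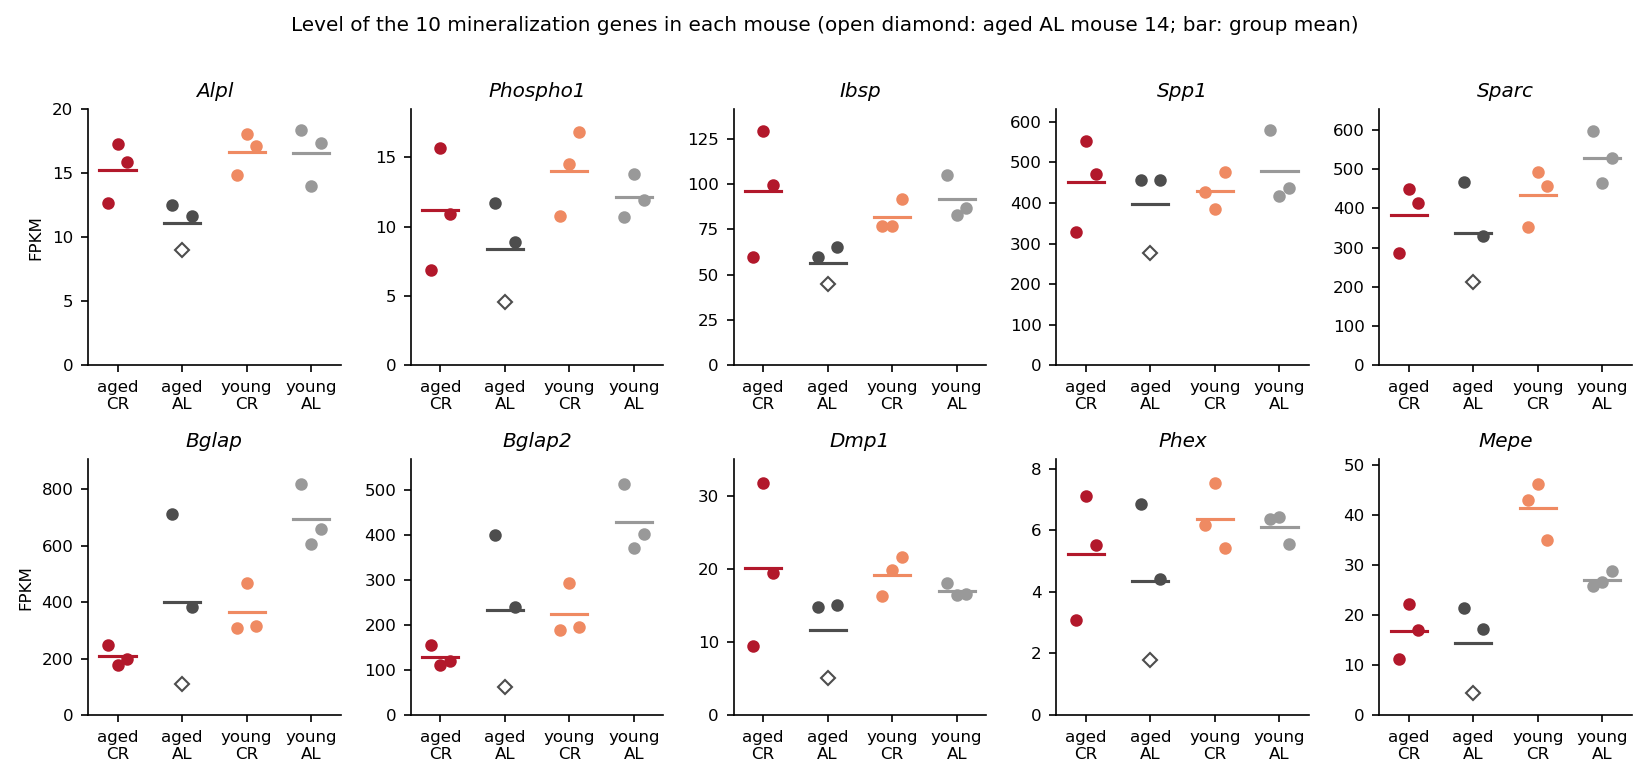
Level of each member in each mouse, in FPKM on the vertical axes, by group on the horizontal axes. Points are mice, bars are group means, and the open diamond is aged AL mouse 14, which is lowest for all 10 members. Bglap and Bglap2 are lower in each young CR mouse than in each young AL mouse, and Mepe is higher.

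No member passed the limma test at an adjusted p under 0.05 in any of the 5 comparisons with all 12 mice. The share of all 13590 tested genes that passed was 0% for CR against AL in aged mice, 0.0662% in young mice, 0.258% for CR against AL over both ages, 0.758% for aged against young over both diets and 0% for the interaction of diet and age. At an unadjusted limma p under 0.05, 2 members were higher with CR in aged mice (Alpl and Ibsp) and 0 lower, against 4.50% of all genes higher and 3.22% lower. In young mice 0 members reached that level in either direction, against 5.79% of genes higher and 5.24% lower. Other limma alternatives gave 3 members there, Bglap, Bglap2 and Mepe, among them the fits without aged AL mouse 14, with quality weights, and with the young groups alone (adjusted p = 0.075, 0.0888 and 0.0792 in that last fit). Over both ages the count was also 0, against 7.42% higher and 6.45% lower. At that p it was 3 with quality weights, 3 without aged CR mouse 5, and 6 without aged CR mouse 5 and aged AL mouse 14. In aged mice those fits gave 4, 3 and 5 members, and the fit without aged CR mouse 6 gave 0. The 4 with quality weights were Alpl and Ibsp, higher, and Bglap and Bglap2, lower. The 3 were Alpl, Ibsp and Dmp1, all higher, and the 5 included Bglap and Bglap2, lower. Without aged AL mouse 14 alone, only Bglap and Bglap2 reached that level, both lower (unadjusted limma p = 0.00056 and 0.000497). Alpl and Ibsp then had an unadjusted limma p of 0.0573 and 0.0546. With age, 5 members were lower (Alpl, Sparc, Bglap, Bglap2 and Mepe) and 0 higher, against 9.76% of genes lower and 6.80% higher. The interaction reached that level for 1 member, Ibsp, against 4.23% of genes. An unequal-variance test on FPKM, run for the comparisons within each age, called 0 members in aged mice (0 at an unadjusted p under 0.05) and 0 in young mice (3 at an unadjusted p under 0.05). For these alternatives the shares of all genes at an unadjusted p under 0.05 are not given here. Their member counts therefore cannot be set against the shares of the fit with all 12 mice. Over both ages, the share of genes called at a limma adjusted p under 0.05 rose from 0.258% to 6.79% with quality weights. Without aged CR mouse 5 and aged AL mouse 14 it was 3.25%. Comparisons of 3 mice against 3 cannot go below an exact permutation p of 0.1.

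In young mice the osteocalcin genes separated the diets. Bglap had 309, 468 and 314 FPKM in young CR mice, against 820, 606 and 659 FPKM in young AL mice. Bglap2 had 188, 293 and 195 FPKM in young CR mice, against 514, 371 and 403 FPKM in young AL mice. Each young CR mouse was below each young AL mouse for both genes, as were 9.38% of all tested genes. The log2 fold change was -0.95 for Bglap (standard error 0.50, limma adjusted p = 0.518) and -0.94 for Bglap2 (standard error 0.51, adjusted p = 0.527). The standard error is estimated over all 4 groups and so includes the spread of the aged AL mice. With aged AL mouse 14 left out, the same fold changes had adjusted p of 0.139 and 0.122.

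In aged mice the osteocalcin genes were low in CR mice and widely spread in AL mice. Bglap had 249, 177 and 199 FPKM in aged CR mice, against 714, 111 and 382 FPKM in aged AL mice. Bglap2 had 155, 111 and 119 FPKM in aged CR mice, against 400, 62.6 and 241 FPKM in aged AL mice. The groups overlapped only through aged AL mouse 14, and the other 2 aged AL mice were above all 3 aged CR mice. Log2 fold changes were -0.60 for Bglap (standard error 0.50, limma adjusted p = 0.828) and -0.52 for Bglap2 (standard error 0.51, adjusted p = 0.863). Without aged AL mouse 14 they were -1.34 and -1.28 (adjusted p = 0.172 and 0.165), and without aged AL mouse 13 they were 0.00 to 2 decimals for Bglap and 0.04 for Bglap2.

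Over both ages, Bglap had a log2 change of -0.77 with CR (standard error 0.36, limma adjusted p = 0.363) and Bglap2 of -0.73 (standard error 0.36, adjusted p = 0.398). Without aged AL mouse 14 both passed, at -1.14 (adjusted p = 0.021) and -1.11 (adjusted p = 0.019), and then 2 of 10 members were called against 1.05% of all genes. Leaving out aged CR mouse 5 as well gave -1.21 and -1.19 (adjusted p = 0.0109 and 0.00838), with 3.25% of genes called. With all mice and a quality weight for each, the values were -1.25 and -1.20 (adjusted p = 0.0151 and 0.0166), with 6.79% of genes called. The weights of aged AL mice 13, 14 and 15 were 3.58, 0.259 and 0.622, so their weighted mean rested mostly on mouse 13. With all 12 mice at equal weight neither gene passed, and without aged AL mouse 13 the values were -0.48 for Bglap and -0.45 for Bglap2 (adjusted p = 0.495 and 0.55).

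Bglap3, the third gene of the osteocalcin cluster, was measured at a level far below the other 2. It had 3.07, 4.72 and 3.71 FPKM in young CR mice, against 7.18, 8.24 and 7.70 FPKM in young AL mice, again with no overlap. In aged CR mice it had 3.60, 1.69 and 0.998 FPKM, against 6.64, 0.859 and 4.54 FPKM in aged AL mice, mouse 14 being the lowest. Its log2 fold change with CR was -0.56 in aged mice, -0.86 in young mice and -0.71 over both ages (limma adjusted p = 0.809, 0.508 and 0.345). Bglap3 passed over both ages without aged AL mouse 14 (-1.01, adjusted p = 0.0449), and in young mice in a fit of the young groups alone (adjusted p = 0.0446). Because 37.9% of the 50-base stretches of Bglap2 and 19.3% of those of Bglap also occur in Bglap3, its values are not independent of theirs.

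Sparc, which encodes osteonectin, had 286, 450 and 413 FPKM in aged CR mice, against 468, 213 and 329 FPKM in aged AL mice. In young CR mice it had 353, 492 and 456 FPKM, against 596, 465 and 527 FPKM in young AL mice. The diets overlapped at both ages. The log2 fold change with CR was 0.23 in aged mice (standard error 0.26, limma adjusted p = 0.888) and -0.29 in young mice (standard error 0.26, adjusted p = 0.704).

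Among the SIBLING members, Ibsp (bone sialoprotein, a nucleator of mineral in culture) had 59.7, 129 and 99.5 FPKM in aged CR mice, against 59.6, 44.9 and 65.1 FPKM in aged AL mice. In young CR mice it had 77.1, 77.0 and 92.0 FPKM, against 105, 82.9 and 86.6 FPKM in young AL mice. Aged CR mice 6 and 7 were above all aged AL mice and aged CR mouse 5 was within them. The log2 fold change with CR was 0.70 in aged mice (standard error 0.24, unadjusted p = 0.0127, limma adjusted p = 0.524) and -0.15 in young mice (standard error 0.24, adjusted p = 0.853). The value for Ibsp in aged mice was 0.46 without aged CR mouse 6 and 1.01 without aged CR mouse 5. The interaction was 0.86 (standard error 0.34, unadjusted p = 0.0265, adjusted p = 0.999).

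Spp1, which encodes osteopontin, a mineral-binding protein that macrophages and osteoclasts also make, had 329, 554 and 471 FPKM in aged CR mice, against 458, 276 and 458 FPKM in aged AL mice. Young CR mice had 426, 385 and 476 FPKM, against 580, 418 and 436 FPKM in young AL mice. Its groups overlapped at both ages, and its log2 fold changes with CR were 0.19 in aged mice and -0.15 in young mice (standard error 0.23 each, limma adjusted p = 0.897 and 0.856).

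Dmp1, an osteocyte matrix protein whose loss raises the hormone of Fgf23 in mice, had 9.44, 31.7 and 19.4 FPKM in aged CR mice, against 14.8, 5 and 15 FPKM in aged AL mice. In young CR mice it had 16.3, 19.8 and 21.6 FPKM, against 18.1, 16.4 and 16.5 FPKM in young AL mice. The aged groups had the wider spread and the diets overlapped at both ages. Log2 fold changes with CR were 0.73 in aged mice (standard error 0.41, limma adjusted p = 0.728) and 0.16 in young mice (standard error 0.41, adjusted p = 0.923). In aged mice the value for Dmp1 was 0.27 without aged AL mouse 14, 0.35 without aged CR mouse 6 and 1.17 without aged CR mouse 5.

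Mepe, an osteocyte phosphoglycoprotein that inhibits mineralization, showed the opposite order to osteocalcin in young mice. It had 43.1, 46.2 and 35.1 FPKM in young CR mice, against 25.8, 26.7 and 28.8 FPKM in young AL mice. All 3 young CR mice were above all 3 young AL mice, as were 10.1% of all tested genes. The log2 fold change was 0.59 (standard error 0.42, limma adjusted p = 0.634), and 0.59 again without aged AL mouse 14 (adjusted p = 0.249). In aged CR mice Mepe had 11.3, 22.2 and 17.1 FPKM, against 21.4, 4.50 and 17.3 FPKM in aged AL mice. There the diets overlapped, with a log2 change of 0.40 (standard error 0.42, adjusted p = 0.878) that was -0.23 without aged AL mouse 14 (adjusted p = 0.869).

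Of the phosphatases, Alpl had the narrowest range over the 12 mice of all 10 members, and Phospho1 a 3.7-fold range. Alpl, the tissue-nonspecific alkaline phosphatase that hydrolyses pyrophosphate, had 12.7, 17.3 and 15.9 FPKM in aged CR mice, against 12.5, 9.04 and 11.7 FPKM in aged AL mice. In young CR mice it had 14.9, 18.1 and 17.1 FPKM, against 18.4, 14 and 17.4 FPKM in young AL mice. Alpl was the 1 member of 10 higher in every aged CR mouse than in every aged AL mouse, by a narrow gap between 12.7 and 12.5 FPKM, and no member was lower in every aged CR mouse. For all tested genes these shares were 5.70% and 5.33%. The log2 fold change with CR was 0.44 in aged mice (standard error 0.15, unadjusted p = 0.0126, limma adjusted p = 0.524) and 0.01 in young mice (standard error 0.15, adjusted p = 0.983).

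Phospho1, which releases phosphate inside matrix vesicles, had 6.89, 15.7 and 10.9 FPKM in aged CR mice, against 11.7, 4.55 and 8.87 FPKM in aged AL mice. Young CR mice had 10.8, 14.5 and 16.8 FPKM, against 10.7, 13.8 and 11.9 FPKM in young AL mice. Phex, whose loss causes X-linked hypophosphatemia, had 3.08, 7.11 and 5.52 FPKM in aged CR mice, against 6.85, 1.78 and 4.42 FPKM in aged AL mice. Both genes had diets that overlapped at each age. For Phex, young CR mice had 6.16, 7.55 and 5.41 FPKM, against 6.36, 6.44 and 5.56 FPKM in young AL mice. The log2 fold changes with CR were 0.39 in aged and 0.18 in young mice for Phospho1 (limma adjusted p = 0.812 and 0.869), and 0.29 in aged and 0.04 in young mice for Phex (adjusted p = 0.892 and 0.978). For Phospho1 in aged mice it was 0.06 without aged AL mouse 14, 0.13 without aged CR mouse 6, 0.65 without aged AL mouse 13 and 0.67 without aged CR mouse 5.

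**Figure D2:**
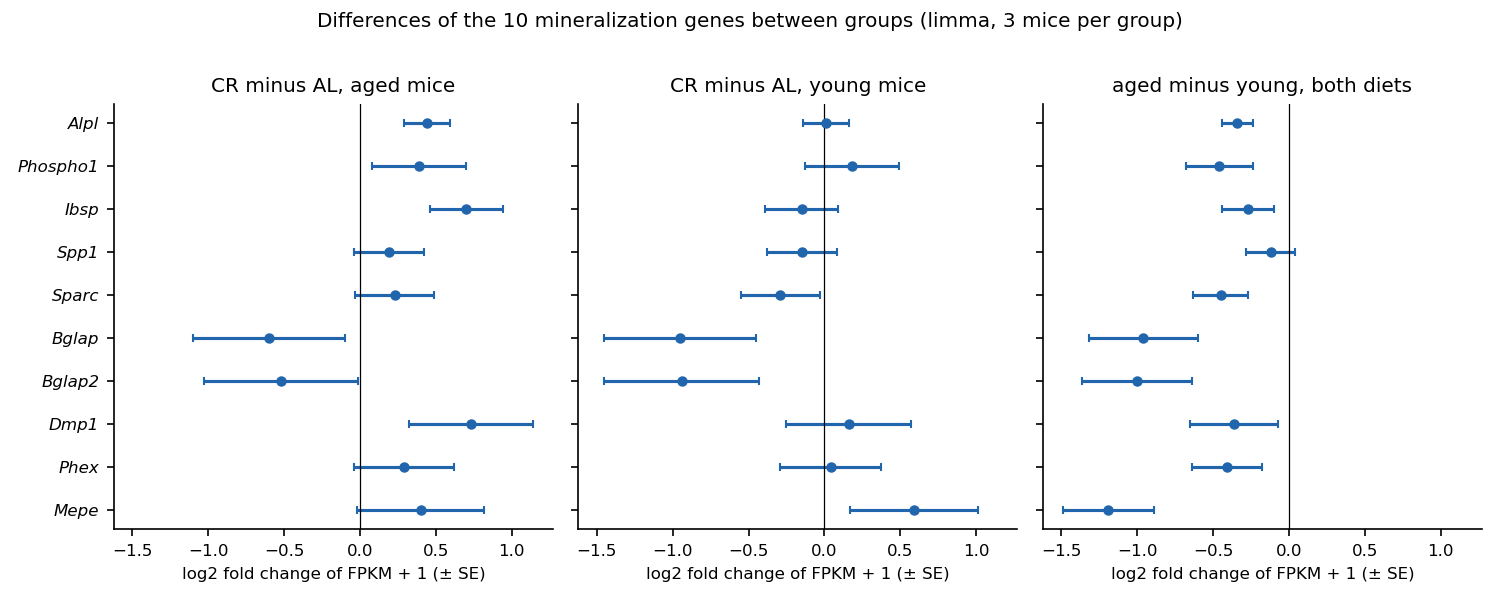
Log2 fold change of FPKM + 1 for each member (points, with limma standard errors as bars) for CR minus AL in aged mice, CR minus AL in young mice and aged minus young mice over both diets. Bglap and Bglap2 lie below 0 in all 3 panels, and all 10 members lie below 0 in the panel of age. No value passed an adjusted p under 0.05.

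On the log2 scale and over both diets, all 10 members averaged lower in aged than in young mice, with log2 fold changes between -1.19 and -0.12 and a median of -0.43, against -0.02 over all tested genes. Mepe had the largest difference, with 16.9 ± 5.49 FPKM in aged CR and 14.4 ± 8.80 FPKM in aged AL mice, against 41.5 ± 5.73 FPKM in young CR and 27.1 ± 1.57 FPKM in young AL mice (SD, n = 3 each). Every aged mouse was below every young mouse for Mepe, the 1 member of which this held, as it did for 0.758% of all tested genes. No member was higher in every aged mouse, against 0.581% of genes. Its log2 fold change was -1.19 (standard error 0.30, limma adjusted p = 0.0984). Without aged AL mouse 14 Mepe passed, at -0.88 (adjusted p = 0.0304), and 1 of 10 members was then called, against 1.32% of all genes. It also passed when aged CR mouse 5 was left out together with aged AL mouse 14 (-0.76, adjusted p = 0.0128, 1.61% of genes called) and with a quality weight per mouse (-0.88, adjusted p = 0.0128, 13.2% of genes called). The weighted fit gave aged AL mouse 14 the lowest weight of all mice.
Osteocalcin levels with age were 208 ± 37.3 FPKM in aged CR and 402 ± 302 FPKM in aged AL mice, against 364 ± 90.3 FPKM in young CR and 695 ± 111 FPKM in young AL mice for Bglap (SD, n = 3 each). Log2 fold changes with age were -0.96 for Bglap (limma adjusted p = 0.214) and -1 for Bglap2 (adjusted p = 0.206), and -0.59 and -0.62 without aged AL mouse 14 (adjusted p = 0.152 and 0.119). Sparc, Alpl and Phospho1 had log2 fold changes of -0.45, -0.34 and -0.46 with age (adjusted p = 0.249, 0.157 and 0.334). For Spp1 the value was -0.12, and 0.00 to 2 decimals without aged AL mouse 14. Markers of cartilage moved with age beside these genes: 6 of 7 tested chondrocyte markers (Acan, Col10a1, Col2a1, Hapln1, Lect1 and Matn3) were called lower in aged mice by limma, and their summed FPKM were 30.8 to 40.4 in aged CR and 24.0 to 47.4 in aged AL mice, against 83.2 to 110 in young CR and 75.3 to 102 in young AL mice. Of other marker lists, 6 of 6 megakaryocyte markers (median log2 fold change 0.64) and 4 of 7 macrophage markers (median 0.25) were higher with age at an unadjusted limma p under 0.05, both tested tendon markers were lower (median -0.53), and all 9 muscle markers had positive values (median 0.79, 1 at that p). The part of these cell types in the difference of the members was not tested.

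**Figure D3:**
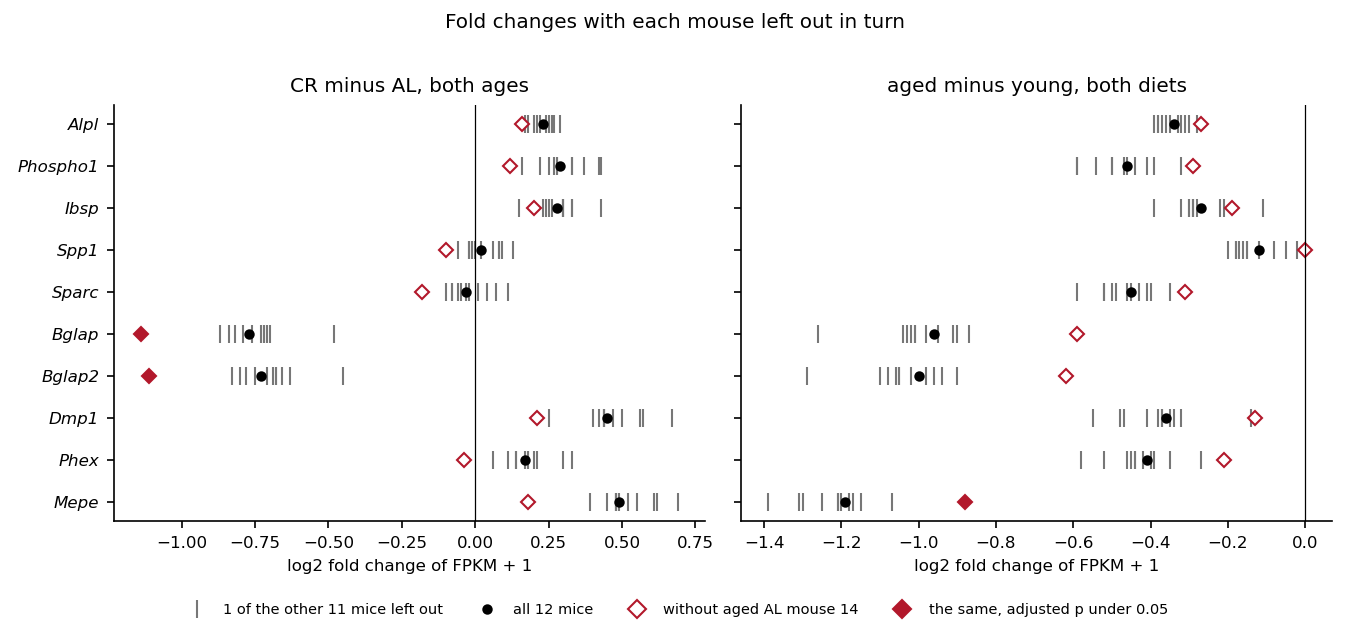
Log2 fold change of FPKM + 1 of each member for CR minus AL over both ages and for aged minus young over both diets, with all 12 mice (black circles), with 1 of the other 11 mice left out (grey ticks) and without aged AL mouse 14 (diamonds, filled where the adjusted p is under 0.05). Leaving out that mouse gives -1.14 for Bglap and -1.11 for Bglap2 with CR and -0.88 for Mepe with age, the 3 filled diamonds.

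Ratios between members set 2 genes of the same mouse side by side. A ratio shows only unequal change and not which gene differed, and it can be shifted by quantile normalization or, for Spp1, by RNA of osteoclasts and macrophages. Bglap over Bglap2 was between 1.58 and 1.78 in all 12 mice, aged AL mouse 14 included. Because reads from their shared sequence can be assigned to either gene, this narrow range does not show that the 2 genes kept their proportion. The ratio of Bglap to Mepe was 7.17, 10.1 and 8.93 in young CR mice, against 31.8, 22.7 and 22.9 in young AL mice. Each young CR mouse was already lower for Bglap and higher for Mepe, so this separation was fixed in advance and is no further result. In aged CR mice the ratio of Bglap to Mepe was 22.2, 7.94 and 11.6, against 33.4, 24.8 and 22.1 in aged AL mice. Aged AL mouse 14, with 24.8, was between the other aged AL mice on this measure, and aged CR mouse 5, with 22.2, was the only CR mouse in the range of AL mice. Bglap over Ibsp was 3.41 to 6.08 in young CR mice, against 7.30 to 7.81 in young AL mice. It was 1.37 to 4.18 in aged CR mice, against 2.48 to 12 in aged AL mice, with mouse 14 at the low end. The ratio of Ibsp to Spp1 was 0.182 to 0.233 in aged CR mice, against 0.130 to 0.163 in aged AL mice, while it was 0.181 to 0.200 in young CR mice, against 0.181 to 0.198 in young AL mice. Other ratios that were computed overlapped between the diets in young mice. Mepe over Dmp1 was 1.63 to 2.65 in young CR mice, against 1.42 to 1.75 in young AL mice. Bglap over Col1a1 was 1.58 to 2.75 in young CR mice, against 2.64 to 3.39 in young AL mice. All of these ratios were chosen after the values were seen and are given without a test.

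**Figure D4:**
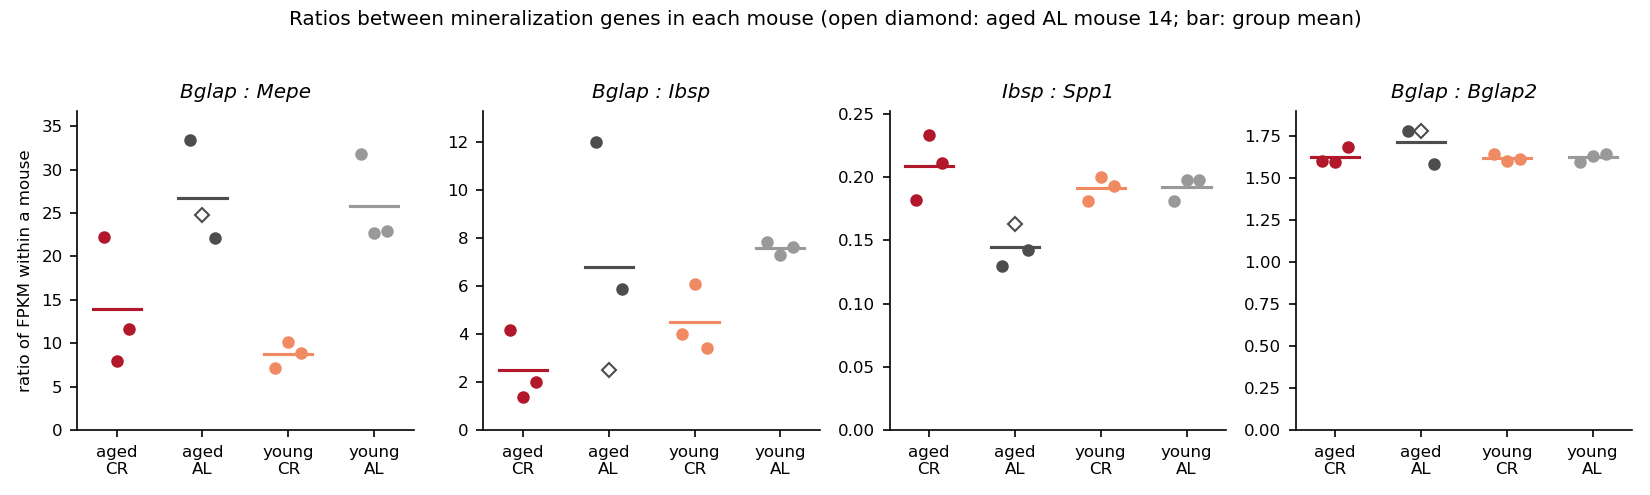
Ratio of FPKM within each mouse for 4 pairs of members, by group. Points are mice, bars are group means, and the open diamond is aged AL mouse 14. Bglap over Mepe is 7.17 to 10.1 in young CR mice and 22.7 to 31.8 in young AL mice, and Bglap over Bglap2 stays between 1.58 and 1.78 in all mice.

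Other genes of bone matrix and mineral metabolism were read from lists of related genes. Of 17 further osteoblast matrix genes, all 17 were tested and 0 were called for CR in either age group, with median log2 fold changes of 0.19 in aged and 0.05 in young mice (unadjusted limma p under 0.05 for 2 in aged mice, both higher, and 0 in young mice). With age 1 was called, Omd (osteomodulin, a keratan sulfate proteoglycan of bone), at a log2 change of -0.89 (limma adjusted p = 0.0273). At an unadjusted limma p under 0.05, 6 of the 17 were lower with age and 0 higher, against 9.76% and 6.80% of all genes. Omd had 2.69, 3.12 and 2.99 FPKM in aged CR and 6.02, 2.48 and 4.36 FPKM in aged AL mice, against 6.26, 8.4 and 6.49 FPKM in young CR and 8.11, 7.59 and 7.08 FPKM in young AL mice. Col11a2 and Cthrc1, next by p, had log2 fold changes of -0.60 and -0.53 with age (adjusted p = 0.163 and 0.209). Of 10 genes of phosphate and pyrophosphate handling 9 were tested, 0 were called for CR (3 were higher over both ages at an unadjusted limma p under 0.05 and 0 lower), and with age 1 was called, Smpd3, a sphingomyelinase needed for skeletal mineralization in mice. Smpd3 had 1.40, 2.57 and 1.91 FPKM in aged CR and 1.49, 1.24 and 1.03 FPKM in aged AL mice, against 2.98, 3.41 and 3.03 FPKM in young CR and 3.10, 2.52 and 2.51 FPKM in young AL mice, a log2 change of -0.61 with age (limma adjusted p = 0.0285). Both calls were lost when any 1 of young CR mice 1 and 2, the 3 young AL mice, aged CR mouse 7 or aged AL mouse 15 was left out, and for Omd also without aged CR mouse 5 (adjusted p of 0.0545 to 0.0984 for Omd and 0.0603 to 0.103 for Smpd3).
Vdr, the vitamin D receptor, had 3.47, 6.24 and 4.77 FPKM in aged CR mice, against 3.03, 2.15 and 3.84 FPKM in aged AL mice. In young CR mice it had 4.19, 5.95 and 5.64 FPKM, against 3.55, 2.49 and 2.77 FPKM in young AL mice, with no overlap. Its log2 fold change with CR over both ages was 0.60 (standard error 0.14, limma adjusted p = 0.097). Ank, a pyrophosphate transporter, had 0.25 (adjusted p = 0.293).

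Of 9 osteoblast transcription factors 6 were tested and limma called 0 in any comparison, with 1 higher with CR in aged mice, 1 lower with CR in young mice and 2 lower with age at an unadjusted p under 0.05. Over all genes these shares were 4.50%, 5.24% and 9.76%. Runx2 had 3.53, 4.23 and 4.13 FPKM in young CR mice, against 5.2, 5.47 and 4.56 FPKM in young AL mice, a log2 change of -0.29 (standard error 0.09, unadjusted p = 0.00741, limma adjusted p = 0.276). Its aged CR mice had 3.38, 3.88 and 3.89 FPKM, against 4.09, 3.87 and 3.99 FPKM in aged AL mice, which overlap. Dlx6 had a log2 change of -0.29 with age (limma adjusted p = 0.278). Among 9 other osteocyte genes 7 were tested and 0 were called. At an unadjusted p under 0.05, 5 of them were lower in aged than in young mice, against 9.76% of all genes. Sost, which encodes the WNT inhibitor sclerostin, had 25.6, 27.2 and 20.7 FPKM in young CR mice, against 17.8, 19.2 and 16.9 FPKM in young AL mice. Like Mepe, Sost was higher in every young CR mouse than in every young AL mouse (10.1% of all genes) and lower in every aged mouse than in every young mouse (0.758% of genes). Its log2 fold change was -1.04 with age (limma adjusted p = 0.133), and -0.72 without aged AL mouse 14 (adjusted p = 0.0323). Dkk1, another WNT inhibitor, and Gja1, the gap junction protein connexin 43, had log2 fold changes of -0.71 and -0.36 with age (adjusted p = 0.137 and 0.165).

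Markers of other cell types moved beside the members. Summed markers of osteoclasts, the cells that resorb bone, were 542 to 989 FPKM in aged CR and 492 to 620 FPKM in aged AL mice, and 703 to 840 FPKM in young CR and 526 to 677 FPKM in young AL mice (9 genes, 7 tested, 0 called). At an unadjusted limma p under 0.05, 5 of those 7 were higher with CR over both ages, against 7.42% of all genes. Adipocyte markers summed to 560 to 948 FPKM in aged CR and 271 to 542 FPKM in aged AL mice, and 553 to 766 FPKM in young CR and 290 to 329 FPKM in young AL mice, and 2 of 7 tested genes (Cidec and Retn) were called higher with CR over both ages and 1 (Plin4) higher with age. General osteoblast markers (Runx2, Sp7, Ifitm5, Col1a1 and Col1a2) summed to 395 to 615 FPKM in aged CR and 290 to 699 FPKM in aged AL mice, and to 341 to 546 FPKM in young CR and 563 to 856 FPKM in young AL mice. None of the osteoblast, osteoclast, adipocyte, muscle or chondrocyte markers was at 0 in all mice. Muscle markers overlapped between diets, with 183 to 1088 FPKM in aged CR and 432 to 1304 FPKM in aged AL mice, and 171 to 573 FPKM in young CR and 229 to 456 FPKM in young AL mice, although the labels state that muscle was removed. The part of these cell types in the levels of the members was not tested.

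**Figure D5:**
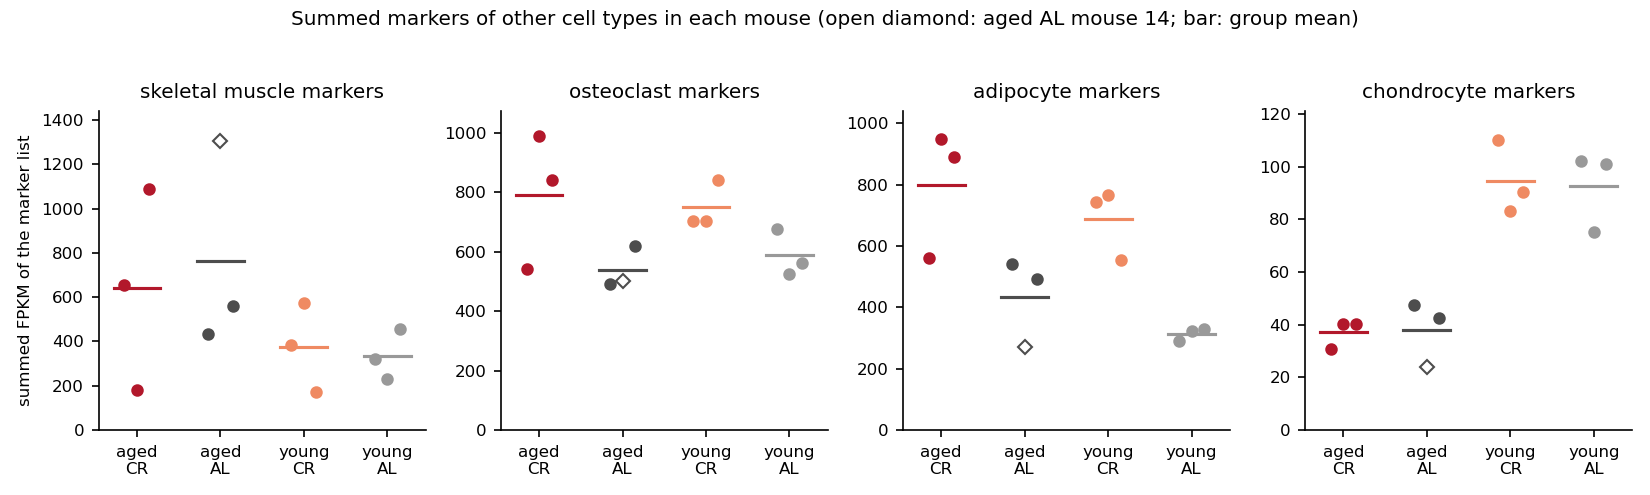
Summed FPKM of marker lists of 4 other cell types in each mouse, by group. Points are mice, bars are group means, and the open diamond is aged AL mouse 14. That mouse has the highest muscle sum (1304 FPKM) and the lowest adipocyte and chondrocyte sums (271 and 24.0 FPKM). Chondrocyte markers are 24.0 to 47.4 FPKM in aged AL mice, against 75.3 to 102 FPKM in young AL mice.

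Genes outside the list that followed the members most closely were found by Pearson correlation with the mean log2 deviation of the 10 members over the 12 mice. The closest were Ackr4 (r = 0.95), Cdh2, Wisp1 and Gja1 (r = 0.93 each), and Wif1, Serpinf1, Sept4, Kazald1, Serpinh1 and Rassf7 (r = 0.92 each). The table gives Sept4 in the altered form of a date, and its name was taken from its identifier. The same measure was 0.96 for Sparc and 0.94 for Phex, and lowest among the members for Ibsp (0.70) and Bglap (0.77). The mean deviation was -0.52, 0.13 and -0.11 in aged CR mice and 0.19, -1.22 and -0.14 in aged AL mice, against 0.06, 0.34 and 0.21 in young CR mice and 0.48, 0.26 and 0.32 in young AL mice, so these values of r rest largely on aged AL mouse 14. The mice share group and normalization, and the values of r are a description.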

How the data were processed

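The authors prepared stranded mRNA libraries from powdered whole tibia. Per the labels and the submitters' processing notes, reads were checked with FastQC 0.11.8 and MultiQC 1.6, trimmed with Trim Galore 0.5.0 and aligned to mm10 with STAR 2.6.1, and genes were quantified with StringTie 2.1.3b. The deposited values are FPKM per gene and mouse that the authors quantile normalized in R, so that values of one rank differ between mice by at most 0.00936 FPKM. They hold no counts, and the depth per mouse is unknown. The sources used here do not say how the 4 technical repeats of a mouse became 1 value. Each mouse counted once, so p-values measure the spread between mice. All 12 value columns were assigned to a mouse, and 0 were left unassigned.

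Values were taken as log2(FPKM + 1), a scale that understates changes of genes with low FPKM. Genes averaging at least 1 FPKM (13590) were fitted in limma 3.58.1 (R 4.3.3) with 4 group means and a mean-dependent prior variance. Fold changes are differences of group means with limma's standard error. Calls are at a Benjamini-Hochberg adjusted p under 0.05 over all tested genes, within each of 5 comparisons. The script was tested on simulated data. Members, gene lists, ratios and alternatives were chosen with earlier results of these data known. All members were named, and from each list of bone genes the called genes and up to 3 with the smallest p. A gene that this rule would name is not reported here. Alternatives were a pseudocount of 0.1, no filter, a minimum mean of 5 FPKM, size-factor scaling, quality weights, a fit of 2 groups alone, an unequal-variance test on FPKM, and mice left out. Positions are from GENCODE M21, a release the authors do not name.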

Additional observations from a re-analysis of the deposited data

How the results depend on the processing

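Of 1207 values of single genes under the alternatives, 1122 kept their direction and side of the threshold, 44 had the other direction, 23 were newly called and 18 were no longer called. For CR over both ages the count of members called was 2 with quality weights, 2 when aged CR mouse 5 and aged AL mouse 14 were both left out, and 0 to 2 with 1 mouse left out. With age these counts were 1, 1 and 0 to 1. Quality weights gave the other direction for Alpl in young mice (-0.02), for Sparc (-0.08), Phex (-0.12) and Mepe (-0.12) in aged mice, for Spp1 (-0.04) and Phex (-0.02) with CR over both ages, for Spp1 with age (0.06) and in the interaction for Bglap (-0.62), Bglap2 (-0.52) and Phex (-0.19). Without both mice, Spp1 (0.10) and Dmp1 (0.09) turned with age, and Bglap (-0.52) and Bglap2 (-0.49) in the interaction. With 1 mouse left out, log2 fold changes with CR in young mice were -0.10 to 0.09 for Alpl, -0.23 to 0.00 for Spp1 and -0.07 to 0.14 for Phex. In aged mice they were -0.06 to 0.40 for Spp1, -0.06 to 0.51 for Sparc, -1.28 to 0.04 for Bglap2, -0.12 to 0.63 for Phex and -0.23 to 0.78 for Mepe. Over both ages they were -0.10 to 0.13 for Spp1, -0.18 to 0.11 for Sparc and -0.04 to 0.33 for Phex. In the interaction they were -0.13 to 0.49 for Phospho1, -0.39 to 0.95 for Bglap, -0.34 to 0.99 for Bglap2, -0.16 to 0.58 for Phex and -0.82 to 0.20 for Mepe. Omd (adjusted p = 0.0778) and Smpd3 (0.0778) lost their call with age without a filter, and Omd (0.0521) at a minimum mean of 5 FPKM. The cause was not tested. Marker genes of other cell types were not refitted under the alternatives. No paired analysis was possible because mouse numbers differ between groups and the shared repeat number marks technical repeats. With 3 mice a group and no read depth, small differences could not be measured.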

Other observations

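Fgf23, the gene of a phosphate-regulating hormone of osteocytes, was singled out after its values were seen. It was under the minimum mean FPKM and was not tested. Fgf23 had 0.249, 0.147 and 0.0754 FPKM in aged CR mice and 0.284, 5.79 and 0.326 FPKM in aged AL mice, against 0, 0 and 0.151 FPKM in young CR mice and 0.026, 0.095 and 0.0457 FPKM in young AL mice. The value of 5.79 FPKM is that of aged AL mouse 14, which was the lowest of all 12 mice for each of the 10 members. That mouse also had the highest summed muscle markers (1304 FPKM) and the lowest summed osteoblast, chondrocyte, adipocyte and marrow stromal markers. A link between these values was not tested.

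Runx2 did not share the low values of the members in aged AL mouse 14. Runx2 had 3.87 FPKM in that mouse, against 3.38 to 4.09 FPKM in the other 5 aged mice, where Bglap had 111 FPKM, against 177 to 714 FPKM in the other 5. The general osteoblast markers, which include Runx2, had their lowest sum of all 12 mice there (290 FPKM). The osteoblast transcription factors had their highest sum there (153 FPKM). Runx2 alone therefore does not describe the osteoblast RNA of that mouse.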
